A study of Rattus norvegicus with 4 samples.

Results

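Sytl1, Rab25, Cavin3 and Gipc2 are 4 genes of vesicle and membrane trafficking among the 958 rat genes with a named probe on a spotted liver cDNA array. The 4 were chosen by their own ratios on these arrays, 3 of them being higher and 1 lower after treatment, so their ratios are given as a description, without a test. All probes whose annotation gives one of these symbols were taken, and each gene had exactly 1 probe, all of which are described.

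The arrays compared liver RNA from male Sprague-Dawley rats killed 18 h after an intraperitoneal injection of ANIT (alpha-naphthylisothiocyanate, 75 mg/kg in olive oil) with that of rats given the same volume of olive oil alone. ANIT is a toxicant that injures bile duct cells and stops bile flow. RNA of 3 rats per treatment was mixed, so each treatment is 1 pool and the spread between animals was not measured. The same pair of pools was hybridised 4 times, with ANIT in the red dye Cy5 on arrays 1 and 3 and in the green dye Cy3 on arrays 2 and 4. In RNA of a whole tissue, fewer cells of a type and less RNA per cell cannot be told apart.

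Cargo moves between the membranes of a cell in vesicles. Rab GTPases mark each membrane and recruit effectors that tether a vesicle to its target, SNARE proteins then fuse both membranes, and scaffold proteins sort receptors for uptake or recycling. In hepatocytes and bile duct cells this traffic carries transporters and receptors to the apical membrane that faces the bile and to the basal membrane that faces the blood. Sytl1 (Slp1) is a synaptotagmin-like protein with C2 domains that binds Rab27 and tethers secretory vesicles. Rab25 is a small GTPase of the Rab11 family, found in epithelial cells, that acts in apical recycling. Cavin3 (formerly Prkcdbp or Srbc) is a coat protein of caveolae, the small pits of the plasma membrane formed by caveolins, and binds protein kinase C delta. Gipc2 belongs to the GIPC family of PDZ domain proteins, which bind the tails of receptors and link them to the motor myosin VI.

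Values are log ratios of ANIT over olive oil, taken as log2. Neither the direction nor the log base is stated in the table, and ANIT over olive oil is the likely direction because the labels list ANIT as the second channel of every array and olive oil as the first. Each error is an SD taken between the pair of arrays that share a dye orientation and pooled across the pairs (n = 4 arrays). It covers hybridisation only, and the number of arrays limits the precision. Because the medians of the arrays as deposited lay at -0.53 with ANIT in Cy5 and at 0.83 to 0.85 with ANIT in Cy3, values are given both as deposited and after centring each array on its median. Ratios carry no level, so whether liver marker genes were abundant could not be checked, and genes are not ranked by abundance.

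Sytl1, Cavin3 and Gipc2 were nearly 2-fold higher in the ANIT pool and Rab25 was 1.76-fold lower. The mean centred log2 ratios were 0.99 ± 0.034 for Sytl1, 0.95 ± 0.061 for Cavin3, 0.90 ± 0.12 for Gipc2 and -0.82 ± 0.047 for Rab25. Each of the 4 genes had the same sign on all 4 arrays, both as deposited and centred. The choice of the 4 genes by their ratios favours such agreement, so it does not set them apart. Over all genes, 227 of the 958 (23.7%) kept one sign over the 4 arrays as deposited and 174 (18.2%) after centring.

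The vesicle tethering gene Sytl1 had deposited log2 ratios of 1.08, 1.21, 1.14 and 1.15 on arrays 1 to 4. These 4 values spanned both dye orientations with an SD of 0.051, against a median SD of 0.72 over all genes, and 29 genes had a smaller one. On the centred scale the SD was 0.75, larger than that of 86.3% of genes. The centred values were 1.61, 0.36, 1.67 and 0.32, high with ANIT in Cy5 and low, though above 0, with ANIT in Cy3. The gap between the orientations is thus present on the centred scale and nearly absent as deposited. Its mean ratio corresponded to 1.99-fold (2.21-fold as deposited).

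The caveolar gene Cavin3 followed Sytl1 closely on every array. Its deposited ratios were 1.12, 1.14, 1.00 and 1.15, with an SD over the 4 arrays of 0.068, and the centred ones 1.65, 0.30, 1.53 and 0.33. The mean was 1.94-fold (2.15-fold as deposited). Within each array the difference between Sytl1 and Cavin3, which a shift shared by all probes of an array cannot alter, was -0.040, 0.066, 0.13 and -0.0066. The mean of this difference, 0.038, was smaller than its SD of 0.093 within dye orientation, so the 2 genes were not distinguishable.

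The receptor sorting gene Gipc2 varied most among the 4. As deposited its log2 ratios were 0.81, 1.40, 0.83 and 1.15, so that both arrays with ANIT in Cy3 lay above both with ANIT in Cy5. The arrays with ANIT in Cy3 also differed from each other by 0.25, whereas those with ANIT in Cy5 differed by 0.016. The SD of 0.12 within dye orientation was larger than that of 77.1% of all probes. Centred, the values were 1.35, 0.55, 1.36 and 0.32, and the mean was 1.86-fold (2.07-fold as deposited). Gipc2 lay below Sytl1 by 0.094 on average, within the SD of 0.098 of that difference, and the sign of the difference was not the same on all arrays (0.27, -0.19, 0.31 and -0.00095).

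Rab25, the GTPase of apical recycling, was the one gene of the 4 that lay below 0. Its deposited log2 ratios were -0.84, -0.50, -0.89 and -0.43, lower with ANIT in Cy5 than with ANIT in Cy3. Centred, the order of the orientations turned, with -0.31 and -0.36 on arrays 1 and 3 against -1.34 and -1.26 on arrays 2 and 4. The size of the decrease thus depended on the centring in each orientation, while the sign did not. The mean ratio was 1.76-fold lower, or 1.58-fold lower as deposited.

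**Figure D1:**
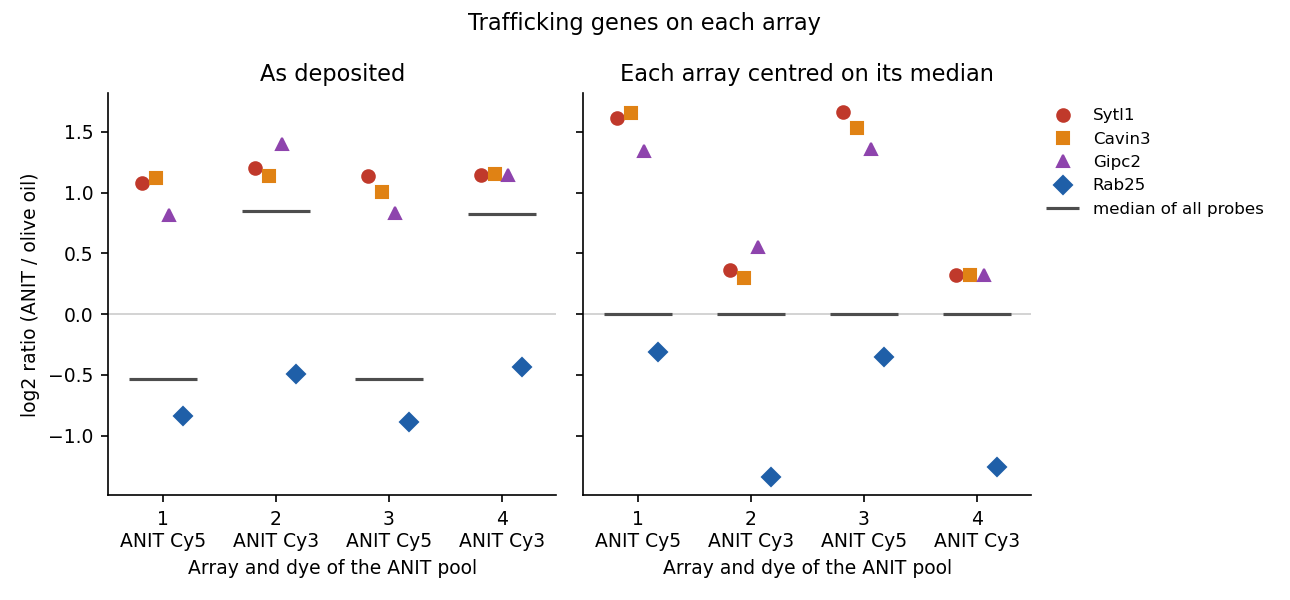
Log2 ratios (vertical axis) of the 4 genes on arrays 1 to 4 (horizontal axis, with the dye of the ANIT pool), as deposited at left and centred at right; grey bars mark the median of all probes. As deposited, Sytl1 and Cavin3 lie between 1.00 and 1.21 on every array and Rab25 between -0.89 and -0.43, whereas centring moves the arrays with ANIT in Cy5 up and those with ANIT in Cy3 down.

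The opposite position of Rab25, which the choice of the 4 genes fixes, can be read within each array, where a shift shared by all probes drops out. A dye effect that differs between probes remains. Sytl1 exceeded Rab25 by 1.92, 1.70, 2.02 and 1.58 on arrays 1 to 4, a mean log2 difference of 1.81 ± 0.080. This difference was larger on both arrays with ANIT in Cy5, and its SD over all 4 arrays was 0.20. Cavin3 exceeded Rab25 by 1.77 (3.41-fold) and Gipc2 exceeded it by 1.71 (3.27-fold) on average. The smallest of these differences on any array was 1.58. Among the 3 higher genes, by contrast, no difference on any array was larger than 0.31.

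By mean centred ratio Sytl1, Cavin3 and Gipc2 stood 13th, 14th and 16th from the top of the 958 genes, and Rab25 stood 14th from the bottom. These places hold for the likely direction of the table. If arrays 2 and 4 were turned in sign, Sytl1 stood 97th, Gipc2 237th and Rab25 221st, all from the top, with Cavin3 close behind Sytl1. In the likely direction their neighbours in this order were not separated from them by more than the spread between arrays. Por, just above Sytl1, had 1.05 ± 0.081, and Aldh1a1, between Cavin3 and Gipc2, had 0.90 ± 0.16. Lrp5 and Slc28a2, on either side of Rab25, had -0.81 ± 0.061 and -0.83 ± 0.057. The rank on single centred arrays moved with the dye. Sytl1 ranked 11th and 9th from the top with ANIT in Cy5 but 200th and 207th with ANIT in Cy3, and Rab25 ranked 317th and 262nd from the bottom with ANIT in Cy5 but 16th and 19th with ANIT in Cy3.

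A gene was counted where its mean centred ratio was at least 1.5-fold and all 4 arrays had the sign of the mean. By this rule 34 of the 958 genes (3.55%) were higher and 21 (2.19%) lower. Sytl1, Cavin3 and Gipc2 were among the higher genes and Rab25 among the lower, a place that the choice of the 4 genes fixes. At 2-fold, 12 genes (1.25%) were higher and 11 (1.15%) lower, none of the 4 among them. As deposited, Sytl1, Cavin3 and Gipc2 passed 2-fold, because that scale lies 0.15 higher for every gene. Of the genes counted at 1.5-fold, 61.8% were higher on the centred scale, 76.9% as deposited, 49.2% with arrays centred on the spotted housekeeping genes Hprt1 and Actb, and 50% with local centring by dye difference, so the balance of higher and lower genes depended on the scale.

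The probes of this array differed widely between dye orientations. The difference in deposited ratio, ANIT in Cy5 less ANIT in Cy3, had a median of -1.25 over the 1936 probes and ran from -3.30 to 0.36. Sytl1 and Cavin3 had differences of -0.068 and -0.084, among the 484 probes with the highest differences, and Rab25 (-0.40) and Gipc2 (-0.45) were among the next 484. The SD of the mean ratios was 0.46 and 0.45 in these sets. It was 0.061 in the 484 probes of lowest difference, where no probe was counted as 1.5-fold higher or lower. When each ratio was centred on the probes nearest to it in this difference, Sytl1 had 0.95, Cavin3 0.91, Gipc2 0.75 and Rab25 -0.92, and all 4 were still counted. The part of spot brightness in these differences was not tested, since intensities were not analysed here.

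**Figure D2:**
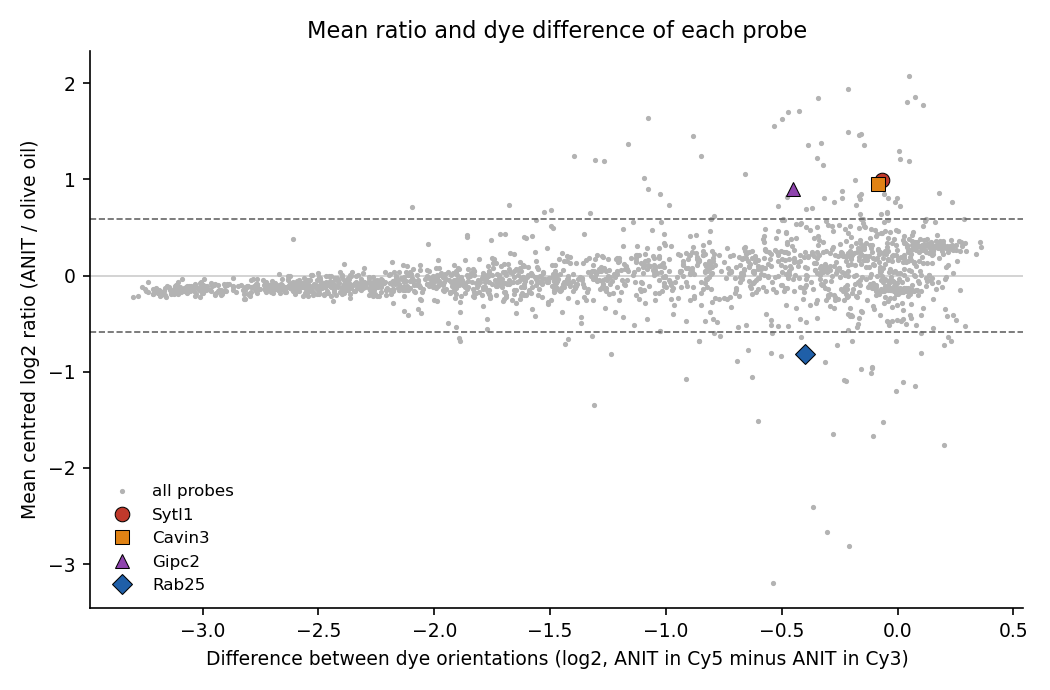
Mean centred log2 ratio (vertical axis) against the deposited difference between dye orientations (horizontal axis, log2) for each of the 1936 probes, with the 4 genes marked and dashed lines at 1.5-fold. The 4 genes lie at differences of -0.45 to -0.068, where mean ratios spread widely, and far from the narrow band at the left.

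Each of the 4 genes rests on 1 spotted cDNA, so no second probe could be set beside it. For the 340 genes with several probes, the range between probes of one gene had a median of 0.14 and a 90th percentile of 0.55, and it reached 1 or more in 10 genes. In 4.12% of these genes it was 0.8 or more, about the size of the ratio of Rab25. Whether each cDNA detects its gene alone, apart from related Rab, synaptotagmin-like, cavin or GIPC transcripts, was not tested.

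The genes whose 4 centred values lay nearest to each of these, by Euclidean distance over the 4 arrays, were found among all 958 genes. For Sytl1 the nearest was Cavin3 (distance 0.15), and for Cavin3 it was Sytl1. Both were followed by Mfsd10, a membrane transporter gene (0.85), and Aurkaip1, which encodes a protein that binds Aurora kinase A (0.81), values being mean log2 ratios. Gipc2 lay nearest to the stress kinase gene Mapk14 (0.81, distance 0.29), the liver glycogen synthase gene Gys2 (0.76) and Por, the reductase of cytochromes P450 (1.05). For Rab25 the nearest were the nucleoside transporter gene Slc28a2 (-0.83, distance 0.13), the Wnt co-receptor gene Lrp5 (-0.81) and Gckr, the regulator of glucokinase (-0.90). With 4 arrays of one pair of pools, such nearness says only that the ratio and the dye difference were alike.

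Other trafficking genes were taken from 7 lists chosen by function, of which 31 genes had a named probe. Their median was -0.026 against -0.040 over all genes, and 29 of them lay between -0.35 and 0.35. Over all genes the 5th percentile was -0.45 and the 95th 0.49, so ratios near 0 were not particular to these lists. The median of the 31 genes was 0.30 with ANIT in Cy5 and -0.30 with ANIT in Cy3. At 1.5-fold 0 were higher and 1 was lower, 3.23% of the 31 beside 5.74% of all genes. The counted gene was Vps54, a subunit of a complex that tethers vesicles returning from endosomes to the Golgi. Vps54 had -0.57, -0.63, -0.64 and -0.67 on arrays 1 to 4 and a mean of -0.63 ± 0.043 (1.54-fold lower). On the deposited scale the arrays of Vps54 disagreed in sign (-1.10, 0.22, -1.17 and 0.16), unlike those of Rab25, and it was not counted there.

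Close relatives of the 4 genes were sparsely represented. Of the Rab GTPases and their regulators 4 of 87 listed genes were measured and none was counted. The dye difference of Rab2a (-2.49) was among the lowest on the array, where no probe at all was counted. Rab1a, which acts between the endoplasmic reticulum and the Golgi, had a mean log2 ratio of 0.061 and Rab2a had -0.15. The early endosome effector gene Rabep2 had -0.34 ± 0.089 and lay below 0 on each centred array. As deposited, the arrays of Rabep2 disagreed in sign (-1.02, 0.53, -0.94 and 0.67), unlike those of Rab25. None of the 103 listed synaptotagmin, SNARE and exocytosis genes had a named probe. Of the caveolar and lipid raft list only the lipid receptor genes Cd36 (-0.17) and Scarb1 (-0.13) were measured. Scarb1 lay above 0 with ANIT in Cy5 (0.29 and 0.11) and below 0 with ANIT in Cy3 (-0.51 and -0.42). No caveolin or other cavin was measured. The position of Rab25 below and of Sytl1 and Cavin3 above 0 can therefore not be set beside that of their partners.

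Among 8 genes of endocytosis and receptor sorting, the group nearest to Gipc2 in function, the median was 0.048. Besides Vps54, the vitamin uptake receptor gene Cubn had 0.28 ± 0.15 and the clathrin heavy chain gene Cltc 0.22 ± 0.035, and neither was counted. Of 8 genes of transport between the endoplasmic reticulum and the Golgi, 6 lay above 0, none was counted, and the median was 0.24. Ssr4, a subunit of the translocon-associated complex, had 0.30 ± 0.019, Sar1b, the GTPase of COPII vesicles, 0.29 ± 0.14, and Arf4, a GTPase of the Golgi, 0.28 ± 0.058. Those 3 genes, Cubn and Cltc lay above 0 with ANIT in Cy5 and below 0 with ANIT in Cy3 once centred, and the list medians followed the dye in the same way (0.78 and -0.26 for the transport list, 0.45 and -0.35 for the sorting list).

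Genes of the bile canaliculus and of polarity, the apical domain that recycling serves, had a median of -0.090 over 7 genes, none counted. This median was 0.43 with ANIT in Cy5 and -0.46 with ANIT in Cy3. Cdh2, the N-cadherin of hepatocyte junctions, had -0.56 ± 0.099 and lay below 0 on all 4 arrays, just short of 1.5-fold (1.48-fold lower), and it was counted when array 1 or array 4 was left out. The polarity gene Pard3 and the membrane linker gene Ezr had 0.24 each, with opposite signs in the dye orientations. The canalicular export pump gene Abcc2 had -0.23, with a dye difference of -0.031. Once centred, Abcc2 also lay above 0 with ANIT in Cy5 and below 0 with ANIT in Cy3. The annexin list held Anxa5 (-0.18) and S100a10 (-0.066).

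**Figure D3:**
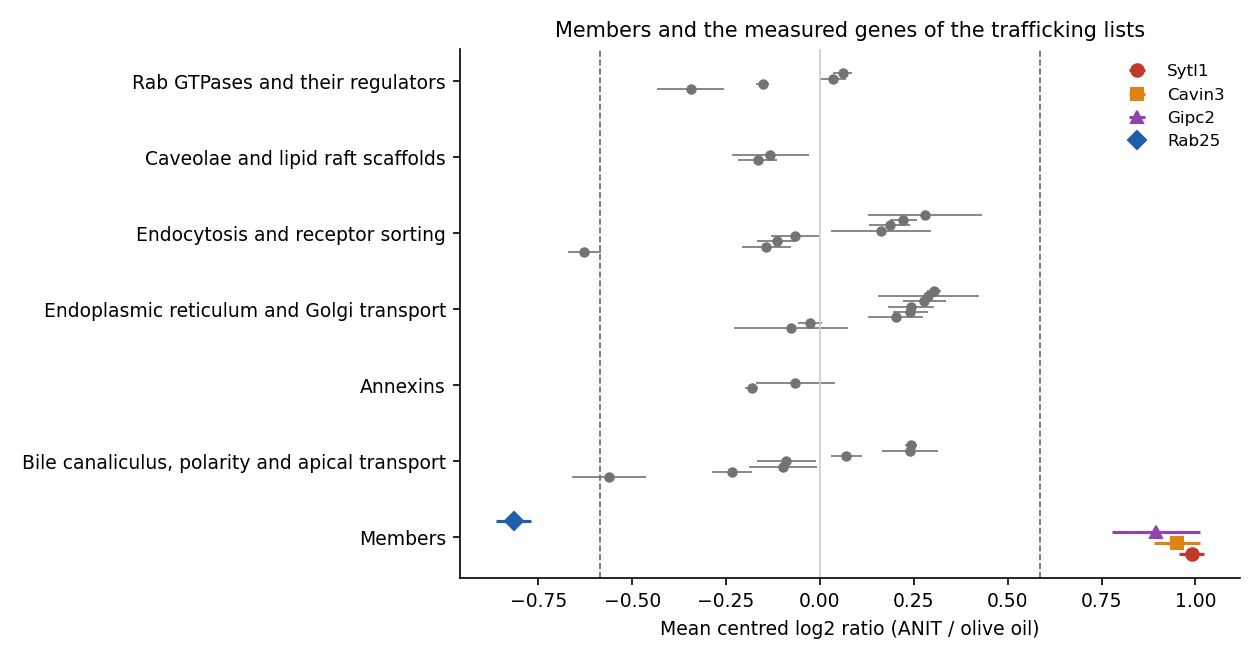
Mean centred log2 ratio (horizontal axis) of the measured genes in each trafficking list (grey) and of the 4 genes (bottom line, coloured), with the SD within dye orientation as bars and dashed lines at 1.5-fold. Vps54 at -0.63 is the only grey point outside the dashed lines, while the 4 genes lie at -0.82 and at 0.90 to 0.99.

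Since Rab25 is an epithelial gene and Cavin3 is known from cells rich in caveolae, marker genes of liver cell types were set beside them. Of the cholangiocyte list 6 of 27 genes were measured, with a median of -0.083 and a range from -0.17 to 0.34. Clu had 0.34, Tspan8 -0.17 and Spp1 -0.12, none of the 6 was counted, and no keratin, Epcam or Sox9 probe was named. For 4 of the 6 (Spp1, Ggt1, Cd24 and Tspan8) the dye difference lay between -2.77 and -2.66, among the lowest on the array, where no probe at all was counted. The list median was -0.76 with ANIT in Cy5 and 0.52 with ANIT in Cy3, so its median near 0 does not show that these markers were unchanged. The 4 endothelial genes ran from -0.25 (Kdr, though 0.11 on array 3) to -0.030, with Cdh5 at -0.21 and Tek at -0.038. Tek lay below 0 with ANIT in Cy5 (-0.51 and -0.43) and above 0 with ANIT in Cy3 (0.44 and 0.34). The mean of Tek near 0 therefore does not show that it was unchanged. The 9 stellate cell and fibroblast genes ran from -0.71 (Ngfr, whose arrays 2 and 4 differed, 0.31 and -1.66) to 0.44 (Mmp14), with Col1a1 at -0.58 and a median of -0.11.

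Of the hepatocyte list 10 genes were measured, with a median of -0.16. This median was 0.36 with ANIT in Cy5, -0.66 with ANIT in Cy3 and -0.0026 as deposited, so its sign depended on the dye. Fgg, a fibrinogen chain of the acute phase, had 0.79 and was counted as higher, Apoa1 had -0.68 and Cyp7a1 -0.49. Apoa1 lay above 0 on array 3 (0.11) and was not counted. The 4 neutrophil and inflammation genes had a median of -0.0010 and a maximum of 0.33 (Icam1), with Il1b at -0.10 and Tnf at -0.040. All 4 had opposite signs in the dye orientations once centred, so this median does not show that they were unchanged. The one gene measured from the lymphocyte list, Lck, had -0.19, and none of the 15 genes on the macrophage list had a named probe. Of 2 red blood cell genes Car1 had -1.35, counted as lower, and Epor -0.019. The part of cell composition in the ratios of Sytl1, Rab25, Cavin3 and Gipc2 was not tested.

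The sequence just before each gene's start is given so that the region of the lowered Rab25 can be read beside those of Sytl1 and Gipc2, which were both higher. The sequences, given for 3 of the 4 genes, are the 250 bases before the start in RefSeq's rat assembly GRCr8, written 5′ to 3′ on the gene's strand. They are Sytl1 at chr5:150746841-150747090, Gipc2 at chr2:243770200-243770449 and Rab25 at chr2:176304222-176304471, all on the minus strand, and for Sytl1 the more upstream of 2 starts was used. Capitals mark a match to one of 7 short motifs searched on both strands.
Sytl1: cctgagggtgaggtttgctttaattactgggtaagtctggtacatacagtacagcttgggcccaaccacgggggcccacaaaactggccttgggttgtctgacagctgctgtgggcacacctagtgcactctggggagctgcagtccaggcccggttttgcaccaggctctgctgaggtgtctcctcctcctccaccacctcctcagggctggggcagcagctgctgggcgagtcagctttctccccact
Gipc2: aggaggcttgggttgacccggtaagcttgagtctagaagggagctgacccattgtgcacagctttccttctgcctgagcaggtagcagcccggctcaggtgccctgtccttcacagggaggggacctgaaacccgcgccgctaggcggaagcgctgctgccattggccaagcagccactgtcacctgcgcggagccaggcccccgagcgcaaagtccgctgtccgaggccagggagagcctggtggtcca
Rab25: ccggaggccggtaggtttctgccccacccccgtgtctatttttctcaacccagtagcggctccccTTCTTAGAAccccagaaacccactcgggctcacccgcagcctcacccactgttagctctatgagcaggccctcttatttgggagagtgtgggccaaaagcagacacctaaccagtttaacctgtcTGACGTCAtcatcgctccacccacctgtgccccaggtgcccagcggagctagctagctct

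AP-1 was searched as TGANTCA, CREB and ATF factors as TGACGTCA, STAT factors as TTCNNNGAA and Nrf2 as TGACNNNGC. The half-site of nuclear receptors was searched as AGGTCA, the Sp1 motif was searched as GGGCGG, and the TATA box was searched as TATAAA. Rab25 held 2 matches that do not overlap. Its TGACGTCA began 60 bases before the start, and 385 of 18999 protein-coding genes (2.03%) had this motif in the same window. Its match to TTCNNNGAA began 185 bases before the start, a motif found in 7.23% of these windows. Sytl1 and Gipc2 held none of the 7. The others were found in 5.82% (AP-1), 10.7% (Nrf2), 12.3% (half-site), 40.3% (Sp1) and 12.3% (TATA box) of all windows. A match describes letters only, and binding was not measured.

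**Figure D4:**
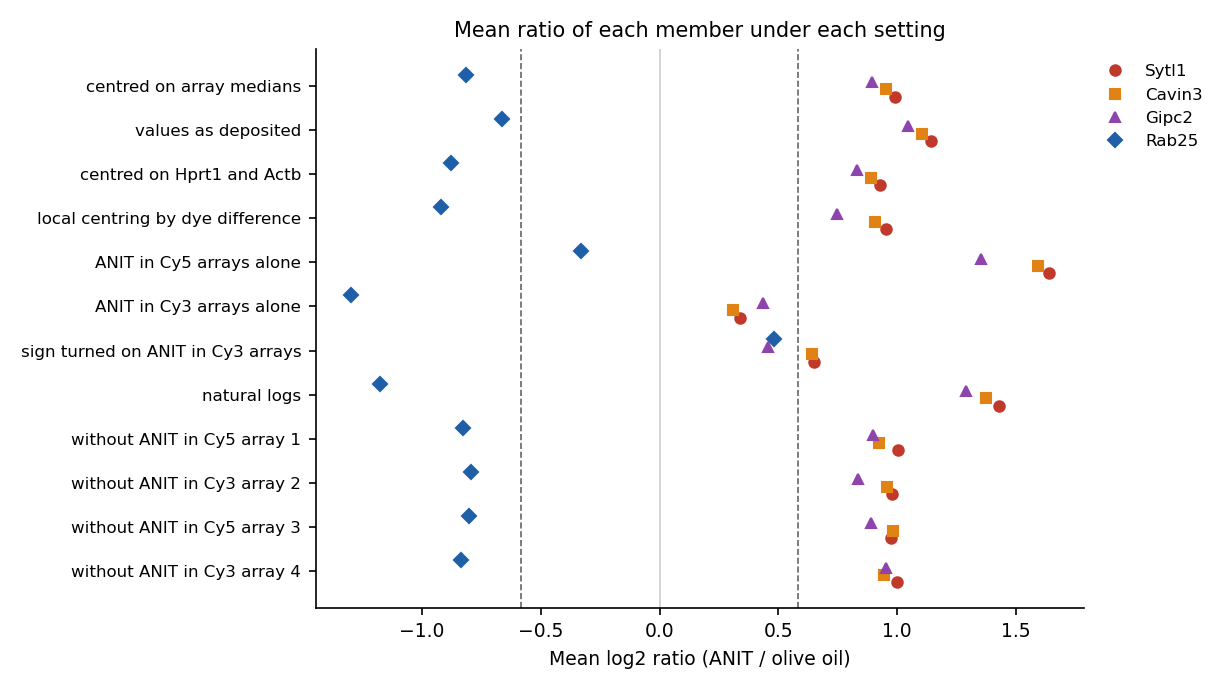
Mean log2 ratio (horizontal axis) of the 4 genes under each way of centring, reading and leaving out arrays (vertical axis), with dashed lines at 1.5-fold. Rab25 lies below 0 and the other genes above it in every line except the one with the sign turned on arrays with ANIT in Cy3, where Rab25 moves to 0.48.

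These directions rest on reading the table as already turned to ANIT over olive oil on every array. Across probes, arrays of opposite dye correlated negatively (Pearson's r from -0.38 to -0.37) and arrays of one dye positively (0.96 and 0.98). If the arrays with ANIT in Cy3 were instead turned in sign and each array centred again, the mean ratios of the 4 genes changed. They were 0.65 for Sytl1, 0.64 for Cavin3, 0.46 for Gipc2 and 0.48 for Rab25. None of the 4 genes was counted, which follows from the turning itself. Turning gives every gene counted before opposite signs in the dye orientations, so the loss of these counts cannot decide between the readings. As deposited, each of the 4 genes keeps one sign over all 4 arrays. They were chosen on these ratios, so this agreement cannot decide between the readings. Which reading holds is not stated in the sources used here.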

How the data were processed

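Log2 ratios of 4 two-colour arrays were used as deposited by the authors, 1 column per array. Per the labels' protocols, poly(A) RNA was reverse transcribed with nucleotides carrying Cy3 or Cy5. For background correction, normalization, direction and log base, the method is not given in the sources used here. No value of the 1936 probes was missing. The platform annotation gave 1432 probes 1 symbol, 19 several and 485 none. Symbols were updated through Entrez identifiers to RefSeq's GRCr8 gene table, which matched 1429. The files name no genome build, so the only coordinates given are those of RefSeq's promoter windows on GRCr8.

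Each array was centred on its median, probes of a gene were averaged, and the means of the Cy5 and Cy3 orientations were weighted equally. No test was made, because the arrays are technical repeats of 1 pair of pools. The members and lists were chosen with earlier results of these data known. Named genes were the members, the 3 largest ratios and every counted gene of each list, the 3 nearest genes of each member, Hprt1 and Actb. Abcc2, Aldh1a1, Ggt1 and Cd24 fall outside this rule and were added after their values were seen. Alternatives were other centrings, single dye orientations, each array left out, the sign turned, natural logs, single probes, 2-fold and the sign of the mean alone. Python 3.11.15, numpy 2.4.6, pandas 2.3.3 and matplotlib 3.10.9 were used.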

Additional observations from a re-analysis of the deposited data

How the results depend on the processing

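The 4 genes kept their direction and were counted at 1.5-fold with values as deposited, centred on Hprt1 and Actb, centred locally by dye difference, read as natural logs, judged by the sign of the mean alone, and with any 1 array left out. Reading the values as natural logs enlarges every ratio, and the sign of the mean alone drops a requirement, so neither could remove a counted gene. Leaving out an array is a weak check, since the genes were chosen on these repeats of 1 pair of pools. As deposited Sytl1 had 1.14, Cavin3 1.10, Gipc2 1.05 and Rab25 -0.66. Centred on Hprt1 and Actb, Sytl1 had 0.93, Cavin3 0.89 and Rab25 -0.88, and 31 genes were higher and 32 lower. With local centring Sytl1 had 0.95, Gipc2 0.75 and Rab25 -0.92, and 30 genes were higher and 30 lower. Read as natural logs, the log2 ratios were 1.43, 1.37, 1.29 and -1.18 in the same order, and 50 genes were higher and 36 lower.

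On the arrays with ANIT in Cy5 alone, Sytl1 had 1.64, Cavin3 1.59 and Gipc2 1.35, while Rab25 at -0.33 was not counted, and 183 genes were higher and 139 lower. With ANIT in Cy3 alone, Rab25 had -1.30, while Sytl1 (0.34), Cavin3 (0.31) and Gipc2 (0.44) were not counted, and 44 genes were higher and 129 lower. With the sign turned on the latter arrays, Rab25 reversed to 0.48, Sytl1 had 0.65, Cavin3 0.64 and Gipc2 0.46. Here 125 genes were higher and 67 lower. No gene counted before could be among them, because turning these arrays gives it opposite signs in the dye orientations. At 2-fold 12 genes were higher and 11 lower. Leaving out each array in turn gave 0.98 to 1.00 for Sytl1, 0.92 to 0.98 for Cavin3, 0.84 to 0.95 for Gipc2 and -0.84 to -0.80 for Rab25. Of 7 medians (endocytosis, endoplasmic reticulum and Golgi, canaliculus, hepatocyte, cholangiocyte, stellate cell, and all trafficking genes pooled), 4 changed sign as deposited, 3 with local centring and 3 in either dye orientation alone. Spot signal over background was not analysed here.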
